A study of Caenorhabditis elegans with 6 samples.

Results

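The small RNAs of wild type adult males of the nematode Caenorhabditis elegans were described from 3 libraries, all those of wild type genotype among the 6 samples of the series. Each library was made from 20 to 30 whole males that were kept at 25 °C and collected 24 h after the mid-L4 larval stage. The animals carried no mutation or transgene named in the labels, and no agent was given. RNA was treated with an acid pyrophosphatase, which makes RNAs with a 5′ triphosphate clonable, and a TruSeq small RNA kit was used. The labels number the libraries but do not say whether they came from separate cultures, so the spread between them may be technical. Reads were counted in sense and antisense on 20222 protein-coding genes. Libraries are called library 1, 2 and 3 by their replicate number, and values over them are mean ± SD with n = 3.

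Worms use several kinds of small RNA to silence or license transcripts. RNA-dependent RNA polymerases copy an mRNA into short antisense RNAs that begin with a guanine, the 22G-RNAs, which are loaded onto worm-specific Argonaute proteins. The 26G-RNAs are longer primary siRNAs made by a complex of Dicer and the polymerase RRF-3. In sperm-producing germlines they are bound by the Argonautes ALG-3 and ALG-4, and in oocytes and embryos by ERGO-1. piRNAs of this species, the 21U-RNAs, begin with uridine, are transcribed from many short loci and are bound by PRG-1. Here an antisense read of 21 to 23 nt starting with G was counted as a 22G read, and an antisense read of 26 nt starting with G as a 26G read.

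Library 3 was the shallowest and stood apart. Genome-aligned reads numbered 1226370, 1799846 and 973971 in libraries 1, 2 and 3. Reads of the 22G class numbered 114763, 309541 and 70387, and 26G reads 33225, 41833 and 7042. Library 3 thus had the fewest of both classes, and counts of genes are given with and without it. A gene with no read in a library can still hold up to 3 by counting error, which is 9.69 to 42.6 per 1000000 22G reads and 71.7 to 426 per 1000000 26G reads.

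On a few genes, reads of a single length and first base took a large share of the aligned reads. Without sequences or positions, it is not known whether such reads are a single RNA species. On the sense strand, rbd-1, which encodes a ribosome-assembly RNA-binding protein, held 147802, 174857 and 281238 reads, 54.04%, 50.03% and 73.9% of the sense reads of protein-coding genes. 99.4% of them were 21 nt long and started with G. Sense reads on ift-74, an intraflagellar transport gene, were 95.1% 23-nt reads starting with T, and those on che-1, the transcription factor of the ASE taste neurons, were 97.9% 21-nt reads starting with T. They numbered 20506, 61823 and 19098 on ift-74 and 19731, 24856 and 26973 on che-1. The genes that followed, fmo-4 (a flavin monooxygenase) and Y54G2A.10, held 17580 and 9283 sense reads over the libraries. Their leading length and first base held only 31.5% and 49.8% of reads. On the antisense strand, daf-15, the worm counterpart of the TOR partner raptor, held 41317, 52156 and 65682 reads, of which 99.1% were 20 nt long and started with T. Antisense reads on dhs-26, a dehydrogenase gene, were 95.1% 21-nt reads starting with A. These profiles of a single length and first base differ from those of the 22G and 26G genes below, and daf-15 and dhs-26 are left out where stated. daf-15 alone took 13.3%, 8.82% and 29.7% of antisense reads, most in library 3.

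The labelled sex was checked on sense reads, which include fragments of mRNA. Without rbd-1, the 83 genes of 3 sperm lists held 30132, 11916 and 8556 sense reads per 1000000 in libraries 1, 2 and 3. The 20 genes of the oogenesis, eggshell and yolk list held 358, 326 and 876 per 1000000, and 3 of them (cpg-1, perm-4 and vit-5) were at 0 in all libraries. In library 3 the RNA-binding protein gene puf-5 gave 70 of the 87 sense reads of the oogenesis list. The sperm lists held more sense reads than the oogenesis list in every library, as the label has it. These totals do not allow for list size, and 9 of the 83 sperm genes were also at 0. Among other tissues of a whole animal, 192 collagen and epidermis genes held 2268, 2273 and 3040 sense reads per 1000000 and 13 muscle genes held 1488, 830 and 2758. The 11 neuron genes held 111, 155 and 100.7, and the 8 intestine genes 119.3, 17.2 and 90.6. In whole animals, fewer cells of a type and less RNA per cell cannot be told apart.

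Without daf-15 and dhs-26, antisense reads on protein-coding genes formed a main peak at 22 nt and a smaller one at 26 nt, both dominated by G. With all genes counted, the 20-nt T reads of daf-15 added a further peak. That gene held 13.3%, 8.82% and 29.7% of antisense reads, against 10.7%, 7.07% and 3.18% for the 26G class. The 22G class made up 36.8%, 52.3% and 31.8% of antisense reads, and 43.3%, 58.0% and 47.1% once daf-15 and dhs-26 were left out. Among 22G reads, 63.3% ± 0.456 were 22 nt long, 19.3% ± 1.38 were 21 nt and 17.4% ± 1.68 were 23 nt. These 3 shares hardly differed between libraries, unlike the share of the class as a whole.

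The first base depended on length. G began 79.8% ± 2.07 of antisense 22-nt reads, and A was next with 14.003% ± 1.10. At 23 nt, G fell to 64.1% ± 3.04 and A made up 24.7% ± 1.12. At 26 nt, G began 92.0%, 94.9% and 83.1% of reads, the highest share of the lengths 21, 22, 23, 25 and 26 nt in each library. The 21-nt reads were mixed, with G in 55.6%, 69.9% and 44.3% and T in 15.6%, 8.48% and 24.4%. Without daf-15 and dhs-26 their G share was 64.3%, 75.1% and 54.3%. At 24 nt, G began 48.7%, 59.4% and 35.6% of reads, less than at 21 nt in each library when all genes were counted. Many 24-nt T reads lay on srh-122, a chemoreceptor gene, whose 2526, 2137 and 1780 antisense reads were 92.6% of this kind. The order of 21 and 24 nt was not examined without srh-122. Of the antisense 21-nt T reads, many lay on sri-48, a chemoreceptor gene, whose 4680, 5473 and 6749 antisense reads were 98.4% of this kind.

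**Figure D1:**
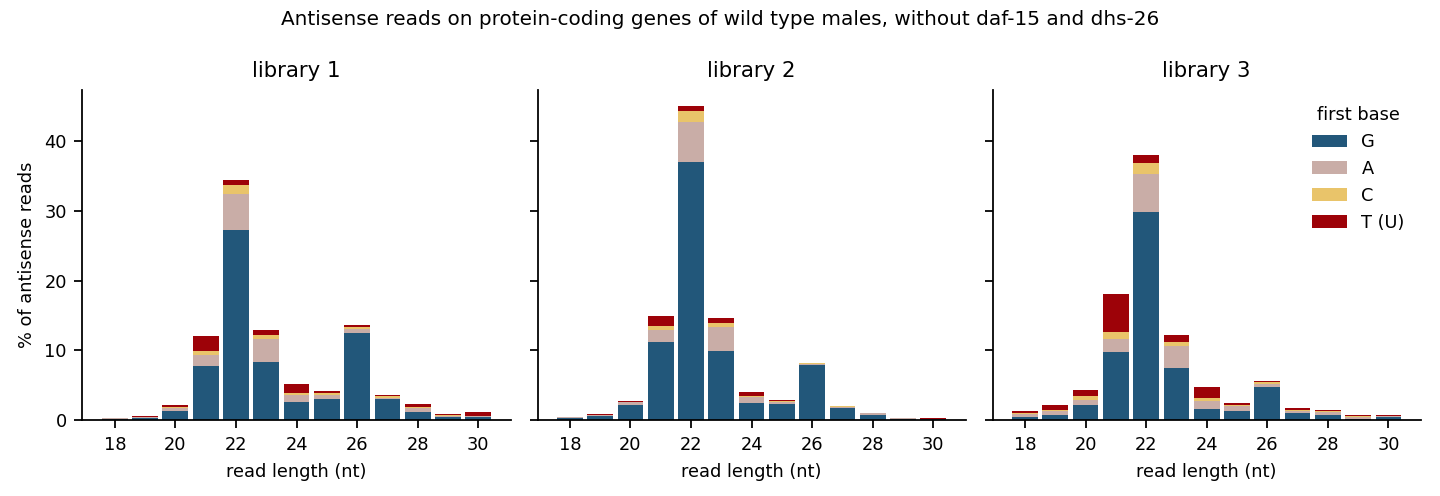
Antisense reads of protein-coding genes by length (horizontal axis, nt) and first base (colour), as % of antisense reads (vertical axis) in each wild type library, without daf-15 and dhs-26. Bars for G stand highest at 22 nt in each library, and a peak at 26 nt is nearly all G and is lowest in library 3.

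The 26G class was smaller and varied more. It made up 10.7%, 7.07% and 3.18% of antisense reads, or 12.5%, 7.85% and 4.71% without daf-15 and dhs-26. For each 100 22G reads there were 28.95, 13.5 and 10.005 26G reads. Libraries with more sense reads on sperm genes also had more 26G reads per 22G read, in the same order of 1, 2 and 3; with 3 libraries, the part of sperm content in this was not tested. Both classes were mainly antisense. Antisense reads outnumbered sense reads of the same length and base by 1262, 1175 and 802 to 100 for the 22G class, without rbd-1, and by 1933, 1740 and 1024 to 100 for the 26G class.

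Reads of 21 nt starting with T stood in for piRNAs, since no piRNA is listed singly in the tables. They made up 1.496% ± 0.271 of genome-aligned reads. The genome alignment left out most of those counted on the che-1 transcript, which had 19731, 24856 and 26973 sense reads, 97.9% of this kind. The genome bin that holds che-1, I:6000001-7000000, had 68, 124 and 120 such reads. Why the 2 alignments differ was not examined, and the shares by bin cover genome-aligned reads alone. The annotation places 13620 of 15363 piRNA loci in 6 bins of 1000000 bases, and those bins held only 10.1% ± 3.64 of the 21-nt T reads. Within those 6 bins, T began 41.9% ± 3.56 of 21-nt reads, against 6.08% ± 1.51 in the other bins. The bin with the most 21-nt T reads was II:3000001-4000000, which holds sri-48 and 7 annotated piRNA loci, with 4597, 5450 and 6682 reads. The piRNA-rich bins alone gave 0.133%, 0.210% and 0.103% of genome-aligned reads as 21-nt T reads, so most of the reads counted under this stand-in came from outside piRNA-rich bins.

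A gene was called a 22G gene or a 26G gene when it had at least 10 reads of the class in each of the 3 libraries. By this rule 942 of 20222 genes (4.66%) were 22G genes and 157 (0.776%) were 26G genes. A single 22G read in any library was found on 10354 genes, and 9868 genes had none. Any 26G read was found on 3468 genes. The 22G genes held 75.1% ± 3.23 of all 22G reads, and the 26G genes 45.6% ± 4.90 of all 26G reads. These counts moved with library 3, which had the fewest genome-aligned reads and the smallest 26G share of antisense reads. Without it there were 1684 22G genes and 597 26G genes, whereas leaving out library 1 or library 2 gave 1061 and 950 22G genes, and 165 and 161 26G genes.

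Both classes were concentrated on few genes. The 10 richest genes of each library took 10.6% ± 1.40 of its 22G reads and the 100 richest 38.5% ± 2.82. Of all 22G reads, 50% fell on 227, 193 and 164 genes, and 90% on 2648, 2643 and 1967. For 26G reads the 10 richest genes took 11.98% ± 1.07 and the 100 richest 40.9% ± 0.674, and 50% fell on 161, 164 and 147 genes. Library 3 had the fewest genes in each of these counts.

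In most genes with many reads, 1 of the classes made up at least 90% of them. 21 genes passed for both classes. They were 2.23% of the 22G genes, against 0.776% of all genes that were 26G genes, and 13.4% of the 26G genes, against 4.66% of all genes that were 22G genes. Without library 3 the number was 166. Of the 942 22G genes, 553 had no 26G read in any library, while 1 of the 157 26G genes had no 22G read. Over all genes, 17.1% had a 26G read in any library and 48.8% had no 22G read. A 26G read was thus more common on 22G genes than on genes at large. The 22G class had more reads than the 26G class in each library. Among 986 genes with at least 100 reads of both classes summed over the libraries, 26G reads were under 10% in 706 genes (71.6%), 10% to 90% in 214 genes (21.7%) and 90% or more in 66 genes (6.69%). Within libraries, among genes with at least 50 such reads, the middle range held 16.7% of 574 genes, 22.2% of 1165 and 3.16% of 253. Library 3, with the fewest 26G reads, had the smallest middle range. Across the 1078 genes that passed for either class, Spearman's rho between 22G and 26G reads was -0.33; both measures come from the same libraries, genes are not replicates, and a gene had to be high in 1 class to enter.

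**Figure D2:**
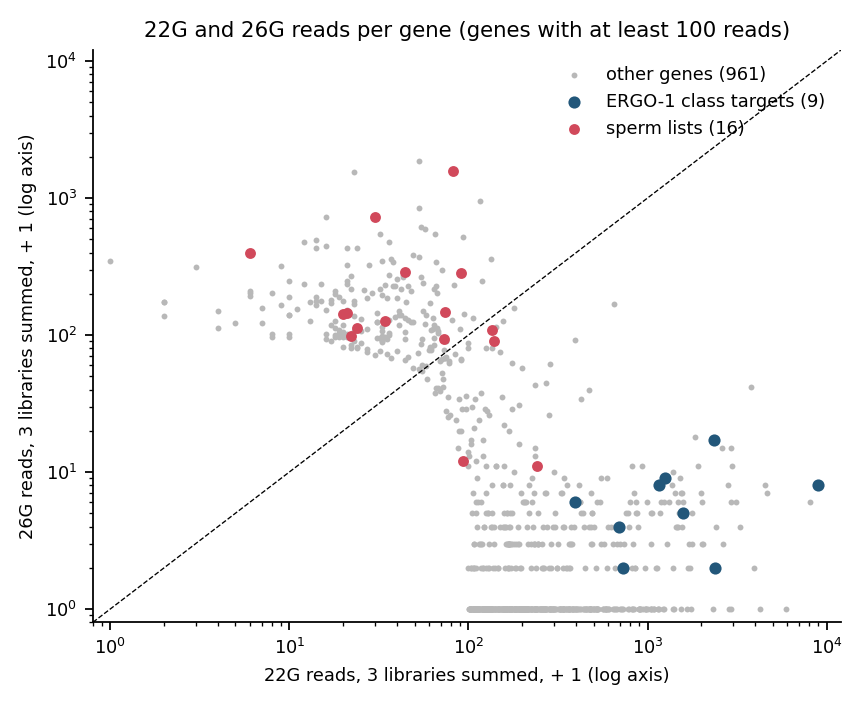
Each point is 1 of 986 genes with at least 100 reads of both classes, placed by its 22G reads (horizontal, log axis) and 26G reads (vertical, log axis) summed over the 3 wild type libraries plus 1; the dashed line marks equal numbers. The 9 ERGO-1 class targets lie at the lower right and most of the 16 sperm-list genes at the upper left.

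The antisense reads of the 2 gene groups were described by length and first base. The groups were called on 22G and 26G counts, so the shares of these classes and of G follow in part from the call. On the 26G genes, 55.8% ± 3.697 of antisense reads were 26-nt G reads, with 9.18% ± 0.919 at 25 nt and 8.47% ± 1.44 at 27 nt, and 10.9% ± 3.16 were 22G reads. G began 94.6% ± 1.83 of their antisense reads. On the 22G genes, 69.2% ± 3.39 of antisense reads were 22G reads and 2.05% ± 1.27 were 26G reads, and G began 80.3% ± 1.87. The 26G genes thus had shoulders of G reads on both sides of 26 nt. Their 22G reads included more of 23 nt, 26.004% ± 0.952 against 16.6% ± 1.55 on the 22G genes.

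Levels were compared between genes per length, as reads of the class per 1000 bases of transcript per 1000000 reads of that class in the library. Over the 942 22G genes this 22G level ran from 6.09 to 37944, with a median of 273. Over the 157 26G genes the 26G level ran from 276 to 44912, with a median of 1967. The 2 scales have different totals, so a 22G level and a 26G level are not compared with each other.

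The highest 22G level per length belonged to C36A4.11, on chromosome III (3840595 to 3841154, WBcel235), at 37944 ± 9693. It had 1711, 5518 and 1718 22G reads and at most 6 26G reads in a library. The gene is in the literature on ERGO-1 class siRNA targets, transcripts whose 22G-RNAs depend on ERGO-1 and its 26G-RNAs. C01F6.14 (IV, 9103876 to 9104191) followed at 27317 ± 7677, with 698, 2756 and 768 22G reads and no 26G read. F39E9.6 on chromosome II had a 22G level of 17148 ± 5294, W09C5.12 on I 15851 ± 1631, Y7A5A.8 on X 15304 ± 3886 and C04G2.10 on IV 13735 ± 1180. C36A4.11 lay above C01F6.14, and C01F6.14 above F39E9.6, in each library. F39E9.6, W09C5.12 and Y7A5A.8 lay within their SDs of each other, and W09C5.12 lay above C04G2.10 in each library. The next 6 were Y26G10.5 (9077 ± 2002), C50C3.19 (8738 ± 533), Y17D7B.4 (8709 ± 1545), C18D4.12 (8487 ± 2991), ZK380.5 (8445 ± 3714) and F37D6.3 (7834 ± 281), and neighbours among them did not differ beyond their SDs. All 12 are known in the files by sequence name only. Relative to the other libraries, the levels of C36A4.11, C01F6.14 and F39E9.6 were highest in library 3 and lowest in library 1.

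These genes did not share one 22G length profile. On C36A4.11, 67.1% ± 2.35 of 22G reads were 22 nt long. On F39E9.6 and ZK380.5 the 21-nt reads were the most common, with 47.1% ± 6.65 and 52.5% ± 3.82 of 22G reads. On Y26G10.5, 92.4% ± 4.02 were 22 nt and 0.914% ± 1.15 were 21 nt. The 22G class made up 93.7% ± 0.630 of the antisense reads of C01F6.14 but 65.6% ± 2.00 of those of Y26G10.5, the highest and lowest of the 12.

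By number of reads rather than level, 4 named genes joined the richest 10. nhr-229, a nuclear hormone receptor gene on chromosome IV, had 953, 2997 and 713 22G reads, and nhr-88, another on II, had 865, 3004 and 627. grd-2, of the hedgehog-like groundhog family, had 666, 2253 and 859, and hil-8, a histone H1-like gene, had 1037, 2377 and 500. Each held 0.794% to 0.937% of 22G reads. Their 22G levels per length were 7138 ± 725, 4461 ± 561, 2690 ± 1070 and 5881 ± 735.

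The highest 26G level per length belonged to F59A6.2, on chromosome II (5014699 to 5015324), at 44912 ± 12942. It had 869, 893 and 101 26G reads and 25, 25 and 2 22G reads, and 85.8% ± 3.19 of its antisense reads were 26G reads. ZK849.6 on I followed at a 26G level of 26152 ± 7503, K03H1.12 on III at 25120 ± 9363, Y69A2AR.46 on IV at 23091 ± 9769 and nspd-3 on IV at 22169 ± 10832. The group from ZK849.6 to nspd-3 did not differ beyond the SDs. nspd-3 is 1 of a family of small nematode-specific peptides made in sperm cells, whose members are close in sequence. Y38F1A.1 (17847 ± 4308), nspa-4 (16771 ± 8152), the sperm-specific family gene ssq-1 (16678 ± 8042), C47E8.11 (15066 ± 7341) and K03B4.6 (13852 ± 1664) completed the 10. In nspd-3, ssq-1, C47E8.11 and Y69A2AR.46 the level in library 3 was the lowest by a wide margin, and nspd-3 had 333, 365 and 23 26G reads. K03H1.12, by contrast, had 256, 573 and 121 26G reads and its highest 26G level in library 3.

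**Figure D3:**
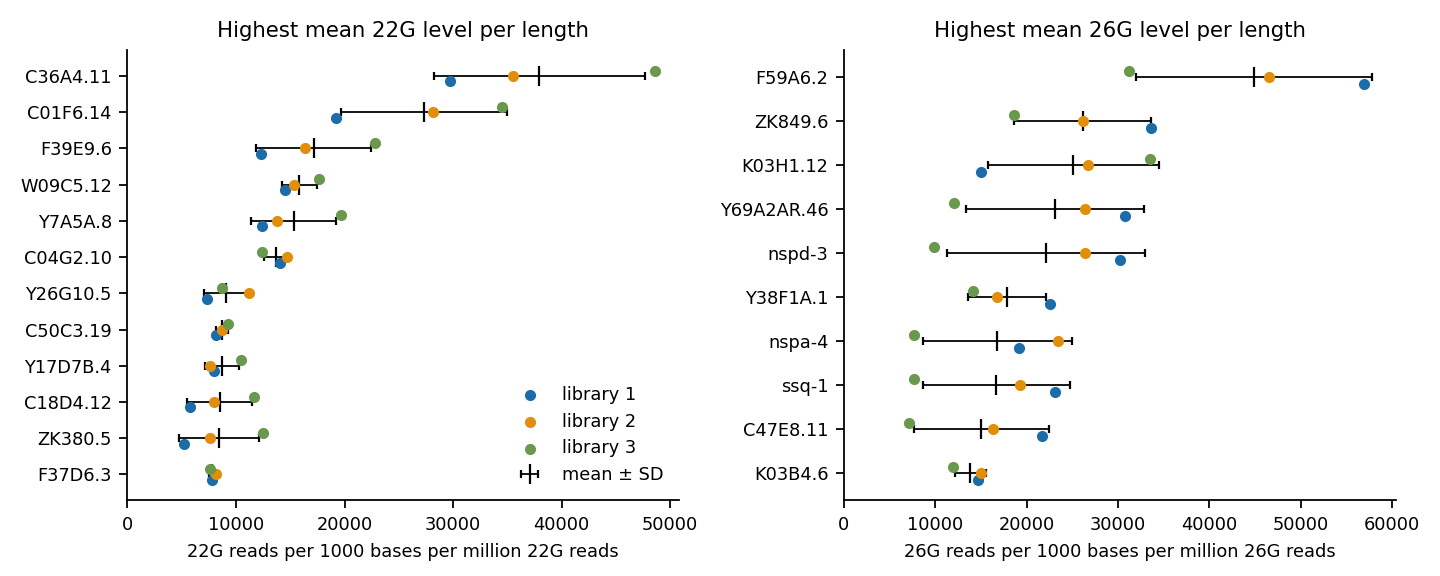
Levels per length (horizontal axis, reads of the class per 1000 bases per 1000000 reads of the class) of the 12 genes with the highest mean 22G level and the 10 with the highest mean 26G level, 1 point per wild type library with the mean ± SD as the black bar. C36A4.11 leads the 22G genes at 37944 and F59A6.2 the 26G genes at 44912, and library 3 is low for most of the 26G genes shown.

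Only 31 of the 157 26G genes carry a gene name, against 406 of the 942 22G genes. The 31 were listed after their values were seen, and those named here are examples. Besides nspd-3, nspa-4 and ssq-1, the 26G level per length was 8338 ± 1542 in msp-10 (a major sperm protein), 7389 ± 1450 in dlc-6 (a dynein light chain gene), 6581 ± 3358 in nspd-1, 5429 ± 2192 in spch-1 (a sperm chromatin protein) and 3917 ± 676 in msd-1 (an MSP-domain protein). spe-6, a kinase gene needed in spermatid maturation, had 29, 51 and 18 26G reads, and spe-46 had 23, 33 and 11. Enzyme and regulator genes were also present: the kinase genes kin-26 (1612 ± 278) and gska-3 (1744 ± 414), the phosphoenolpyruvate carboxykinase gene pck-3 (1548 ± 503) and the cation ATPase gene catp-4 (1343 ± 84.0), all as 26G levels per length. The 26G part of the summed 22G and 26G reads ran from 39.0% in pab-1, which encodes a poly(A)-binding protein, to 97.4% in nspa-4. It was 57.4% in the kinetochore gene knl-1 and 60.4% in the ribosomal protein gene rpl-5, and 82.5% in the proteasome ATPase gene rpt-5 and 92.8% in ubc-24, a ubiquitin-conjugating enzyme gene.

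Of the 21 genes that passed for both classes, the 5 with the most 22G reads were ZK1010.5, C02B10.6, W03C9.1, K08E4.7 and spch-1, named here after their values were seen. ZK1010.5 had 105, 395 and 145 22G reads and 62, 90 and 15 26G reads. C02B10.6, annotated as a protein tyrosine phosphatase, had 106, 238 and 50 22G reads and 27, 46 and 18 26G reads. spch-1 had 54, 68 and 10 22G reads and 179, 164 and 16 26G reads, so that 26G reads led in each library. In ZK1010.5 and C02B10.6, 22G reads led in each.

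Genes of sperm were over the background share for the 26G class. Of the 83 genes of the 3 sperm lists, 72 had a 26G read, where 17.1% of all genes had one. 6 of the 83 were 26G genes (7.23%), against 0.776% of all genes. At 5 reads in each library 14 were (16.9%, against 1.72%), and without library 3, at 10 reads, 32 were (38.6%, against 2.95%). Together they held 7.45%, 6.79% and 3.96% of 26G reads but 0.350%, 0.361% and 0.303% of 22G reads. The 26G-read share was lowest in library 3, where sperm sense reads were also lowest; their part in this was not tested. Of the 31 major sperm protein genes, which build the sperm cytoskeleton, 25 had a 26G read. msp-10 had 115, 136 and 32 26G reads and msp-57 had 136, 252 and 9. All 10 genes of the nspd family had a 26G read, and nspd-1 had 64, 55 and 25. Among the other 42 sperm genes ssq-1 led with 740, 775 and 52 26G reads, followed by ssp-9 with 124, 156 and 9. Members of the msp, nspd and ssp families are nearly identical in sequence, so reads cannot be assigned to 1 member with certainty.

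For the 22G class, 6 of the same 83 sperm genes were 22G genes (7.23%, against 4.66%), and without library 3 it was 14 (16.9%, against 8.33%). They were msp-19 (12, 95 and 27 22G reads), msp-10 (14, 60 and 16), nspd-2 (29, 86 and 22), ssp-9 (12, 21 and 10), ssq-1 (22, 46 and 13) and fer-1, which encodes a ferlin of sperm membrane fusion. The median 22G level per length of all members was 8.91 for major sperm proteins, 68.0 for the nspd family and 21.1 for other sperm genes, against 0.681 for all genes.

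Oogenesis, eggshell and yolk genes lay near the background for 22G. Of 20 genes, cey-2, a germline Y-box protein gene, was the 1 that passed, with 12, 75 and 36 22G reads, which is 5% of the list against 4.66% of all genes. 12 of the 20 had a 22G read and 2 had a 26G read, where 51.2% and 17.1% of all genes had one. Of 33 meiotic prophase genes, none was a 22G gene or a 26G gene, while 30 had a 22G read, against 51.2% of all genes. Their median 22G level per length was 10.006 against 0.681 over all genes. him-6, the worm Bloom helicase gene, had the most 22G reads among them, with 15, 57 and 3. Without library 3, 3 of the 33 were 22G genes (9.09%, against 8.33%).

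ERGO-1 class targets had the highest share of 22G genes of the 22 lists. 5 of the 15 names of this list did not match a protein-coding gene in the table. Of the 10 that matched, 9 were 22G genes (90%, against 4.66% of all genes). None was a 26G gene, in a list too short for the share of 0.776% over all genes to show. The median 22G level per length was 3673 against 0.681 over all genes. The 10 held 4.14% ± 1.22 of all 22G reads and 0.0752% ± 0.0404 of 26G reads. ZK380.5 had 247, 965 and 362 22G reads and Y37E11B.2 had 313, 1536 and 507. Both were highest per 1000000 in library 3 and lowest in library 1. Their 22G reads were 57.8% ± 2.00 22-nt reads, against 65.2% ± 0.314 on the other 22G genes. The list came from general knowledge of published ERGO-1 targets.

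Some genes of the small RNA machinery were themselves 22G genes, in short lists where single genes move the share. Of 21 Argonaute genes 4 were 22G genes (19.05%, against 4.66% of all genes): prg-1 (143, 441 and 88 22G reads), hrde-1, a nuclear Argonaute of inherited silencing (131, 263 and 31), ergo-1 and alg-4. Of 11 genes for 26G-RNA production 4 passed (36.4%), namely rde-4, a double-stranded RNA-binding partner of Dicer (41, 97 and 10), ergo-1 (26, 88 and 13), alg-4 and dcr-1. With 22-nt reads starting with G alone, 1 of the 11 passed. alg-4, whose product binds 26G-RNAs, was the only 26G gene in either list, with 51, 49 and 10 26G reads. The exogenous RNAi list gave 3 of 12, with sid-1, a double-stranded RNA channel gene, at 159, 378 and 110 22G reads, rde-11 at 80, 177 and 35, and rde-4. Of 16 germ granule genes 3 passed (18.75%). These were glh-1, a Vasa-like helicase gene (168, 294 and 40), Y48G1C.1 (21, 34 and 18) and pgl-1, and deps-1 had 29, 19 and 8 26G reads. The polymerase and mutator list gave 1 of 16 (6.25%, near the background), rrf-2, with 36, 63 and 12, and none with 22-nt reads starting with G alone. These lists overlap in rde-4, ergo-1 and alg-4. Without library 3, when 8.33% of all genes passed, the numbers were 8 of 21 Argonautes, 5 of 11 for 26G-RNA production, 5 of 12 for exogenous RNAi, 6 of 16 for germ granules and 4 of 16 for polymerases and mutators.

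Among gene families, the bath genes, which encode BTB and MATH domain proteins, stood above the background and chemoreceptors below it. Of 79 MATH and BATH genes 9 were 22G genes (11.4%, against 4.66%), 8 of 37 bath genes and 1 of 42 math genes. bath-45 had 559, 1802 and 497 22G reads and bath-20 had 314, 799 and 196, at 22G levels per length of 4206 ± 781 and 2627 ± 103. Of the 8 bath genes that passed, 7 lie on chromosome II, and the share of all 37 bath genes on II was not counted. Of 332 F-box genes, which encode adaptors of ubiquitin ligases, 22 were 22G genes (6.63%), led by fbxb-14 (231, 485 and 112) and fbxc-43 (189, 405 and 108). Of 269 nuclear hormone receptor genes 6 passed (2.23%), and the list held 2.13% ± 0.225 of 22G reads, most of it on nhr-229 and nhr-88. Of 1329 chemoreceptor genes 6 passed (0.451%), led by srt-43 (166, 405 and 68) and sru-44 (44, 144 and 33), and srbc-82 was a 26G gene with 10, 32 and 19 reads. Among 157 name families of at least 10 members, grouped after the values were seen, the highest share of 22G genes was in the set family of SET-domain proteins, with 8 of 32. set-23 had the highest 22G level per length of them, 1260 ± 375. The klp kinesin family followed with 3 of 13.

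Of 76 cytosolic ribosomal protein genes 4 were 22G genes (5.26%, against 4.66%), among them rpl-42 (136, 399 and 51 22G reads) and rpl-2 (56, 95 and 15), and without library 3 it was 12 (15.8%, against 8.33%). The median 22G level per length of that list was 35.1, against 0.681 over all genes. rpl-5 was the only 26G gene of that list, with 38, 41 and 23 reads. Of 63 mitochondrial ribosomal protein genes 2 passed, mrpl-40 (17, 52 and 17) and mrpl-28 (14, 67 and 21). Of 72 histone genes 1 passed, the linker histone gene his-24 with 397, 1045 and 287. Of 192 collagen and epidermis genes 3 passed, with col-71 at 152, 267 and 61 and dpy-31, a procollagen protease gene, at 55, 176 and 39. No gene of the muscle, neuron or intestine list passed for either class, in lists too short for a share of 4.66% to show. The most 22G reads there were on unc-22 (6, 6 and 0), the giant muscle protein twitchin, on unc-13 (0, 12 and 9), a synaptic release protein, and on act-5 (0, 0 and 2), the intestinal actin.

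**Figure D4:**
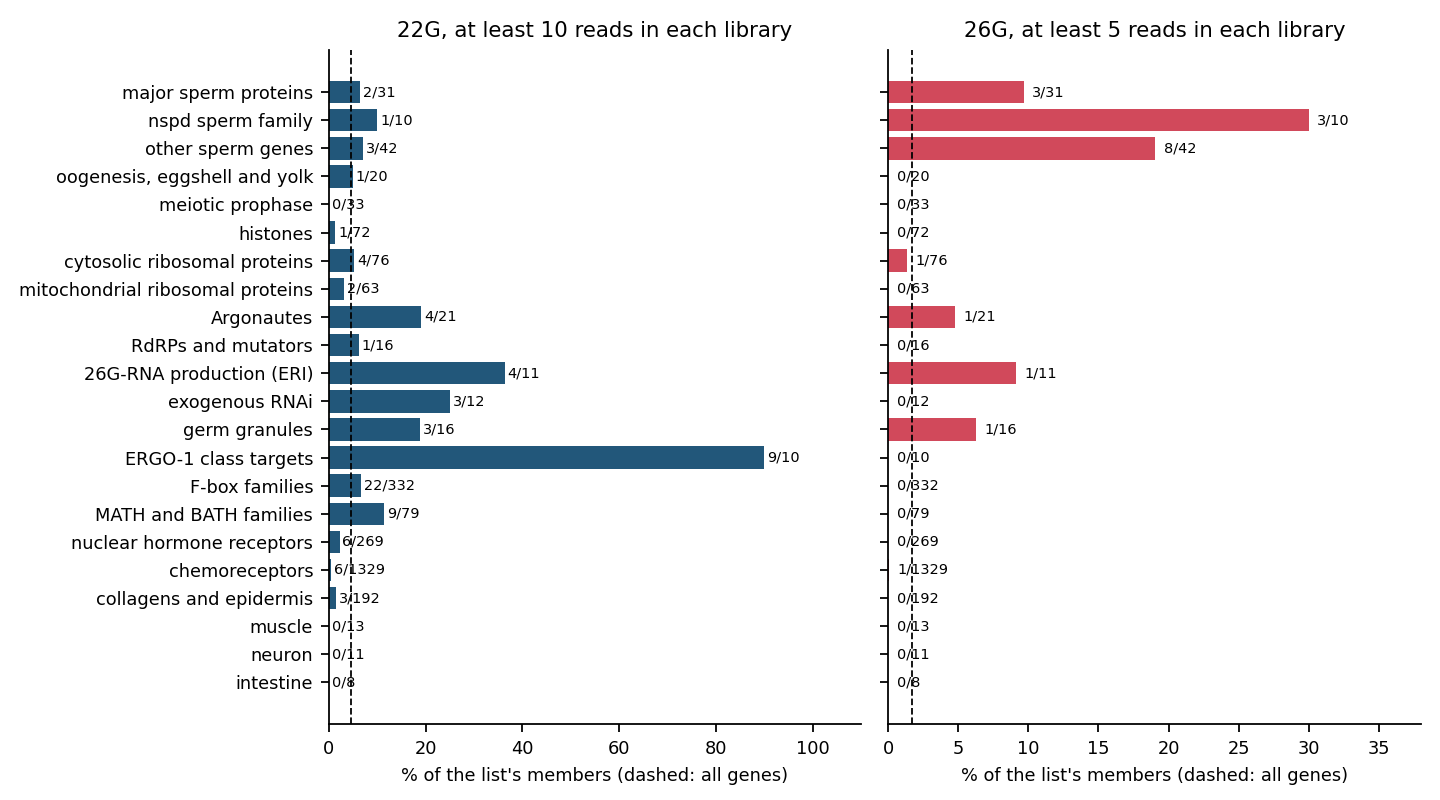
Share of each list's members (horizontal axis, %) that were 22G genes at 10 or more reads in each library (left) or had 5 or more 26G reads in each library (right), with counts beside the bars and the dashed line at the share of all genes (4.66% and 1.72%). ERGO-1 class targets reach 9 of 10 on the left, and the 3 sperm lists stand highest on the right.

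The X chromosome was nearly free of 26G genes. Of 2777 protein-coding genes on X, 1 was a 26G gene (0.0360%), against 0.414% on V, the lowest autosome, and 1.36% on IV, the highest. Without library 3 it was still 1 of 2777 (0.0360%), while the autosomes ran from 1.64% to 5.02%. X carried 0.342%, 0.401% and 1.24% of 26G reads, and 13.7% of genes. The single gene was vha-15, which encodes a subunit of the proton-pumping V-ATPase, with 14, 14 and 52 26G reads, most in library 3. X was lowest for 22G genes as well, with 54 of 2777 (1.94%) against 2.82% on V and 7.45% on III, and it carried 5.53% ± 0.754 of 22G reads. Y7A5A.8, ZK380.5 and his-24 were among the X genes with many 22G reads. Males of this species have a single X and no Y.

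**Figure D5:**
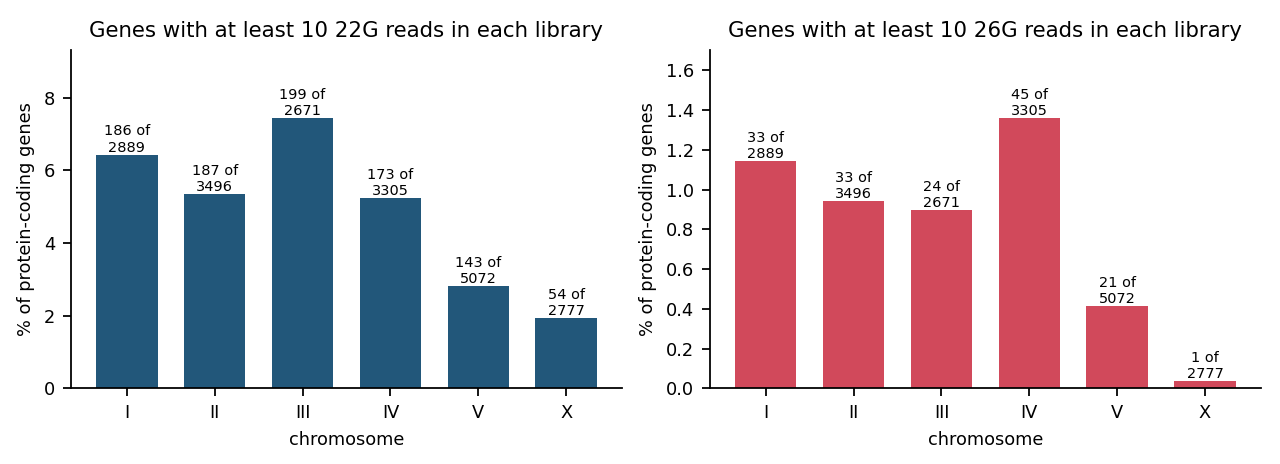
Share of protein-coding genes on each chromosome (vertical axis, %) with at least 10 reads of the class in each of the 3 wild type libraries, 22G on the left and 26G on the right, with counts above the bars. X is lowest in both panels, at 54 of 2777 genes and 1 of 2777.

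Other properties are given as descriptions, with no test. The 26G genes were no longer than genes at large, with a median transcript of 1069 bases against 1088, and the 22G genes had a median of 1324.5. The call used counts unscaled by length, so length can enter it. The 22G median used the isoform richest in 22G reads, and the other medians that richest in 26G reads. Sense reads, at 10 or more over the 3 libraries, were found on 51.6% of the 26G genes, 23.5% of the 22G genes and 13.1% of all genes. 80.3% of the 26G genes are known by sequence name only, against 56.9% of the 22G genes and 51.8% of all genes. Of the 3 equal parts of each chromosome, a division made after seeing the data, the central one held 43.3% of the 26G genes, 30.0% of the 22G genes and 37.6% of all genes.

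Libraries ranked 22G genes alike, and 26G genes less so where library 3 was involved. Across the 942 22G genes, Pearson's r of log2 reads per 1000000 was 0.92 for libraries 1 and 2, 0.87 for 1 and 3 and 0.90 for 2 and 3. Across the 157 26G genes it was 0.90, 0.60 and 0.65. These are descriptions across genes, which are not replicates. Counts of each pair of libraries differed by more than counting error, with a chi-square per degree of freedom of 3.46 to 4.95, so no pair looked like repeats of 1 library.

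Among 120 genes with at least 100 22G reads in each library, the coefficient of variation of reads per 1000000 had a median of 16.02%, where counting alone would give 5.83%, and 112 of the 120 exceeded their counting value. It was highest in rme-8, an endocytosis gene, at 68.3%, with 121 22G reads in library 2 and 125 in library 3 despite their unequal depths. Y37E11B.2 (45.1%) and ZK380.5 (43.98%), both ERGO-1 class targets, came next. The steadiest were Y105E8A.28 (1.84%, with 413, 1083 and 255 reads), Y37H9A.2 (2.71%) and F37H8.2 (3.34%).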

How the data were processed

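The authors deposited expected counts of trimmed reads per annotated transcript and per genome bin, sense and antisense, beside a breakdown of each count by read length and starting base. Breakdown and count matched everywhere (0 exceptions). FastQC 0.12.0 and cutadapt 3.7 were used, per the submitters' processing notes. The aligner is not given in the sources used here, nor is any rule for multiply mapping reads, so near-identical genes may exchange reads. The deposited counts were whole and unscaled.

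For each gene the isoform richest in the class was used, and such isoforms held 98.2% to 98.3% of 22G and 99.4% to 99.5% of 26G reads. Transcript lengths came from the deposited tables and piRNA loci from the Ensembl annotation of WBcel235. No contrast was tested. Named are the 12 genes with the highest 22G level and the 10 with the most 22G reads among 22G genes, the 10 with the highest 26G level among genes with 5 or more 26G reads in each library, the 5 with the most sense reads, the 3 most and 3 least variable, and up to 2 members of each of 22 lists, by 22G level. List members named for 26G reads, and any other gene outside this rule, were chosen after their values were seen. The members and lists were chosen with earlier results of these data known. Read classes, count minimums, isoform summing, thinning and leaving out each library were tried as alternatives. Parsing of read classes and the expected counting error were tested on simulated data. Python 3.11.15, pandas 2.3.3, scipy 1.17.1 and matplotlib 3.10.9 were used. Without molecular identifiers, floors and chi-square values describe counting error alone.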

Additional observations from a re-analysis of the deposited data

Results flagged for a closer look

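Outside the protein-coding genes, antisense 21- to 23-nt reads starting with G also lay on 1791 pseudogenes. Summed over the pseudogenes, they numbered 19655, 57143 and 15185 in libraries 1, 2 and 3. Reads per pseudogene were not compared with reads per protein-coding gene. Pseudogenes entered no count in the report. With 3 libraries in the group, no library could be tested as an outlier.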

How the results depend on the processing

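No paired analysis was possible because the results come from 1 group and from no test. Of 57 alternatives of the main results, 34 moved the value by less than the set margin and 23 by more. The number of 22G genes, 942, became 2036 with all antisense reads, 3737 at 1 read, 1629 at 5 reads and 2420 at 20 reads per 1000000 in each library, 632 with 22 nt alone, 732 after thinning, and 950 to 1684 with a library left out. That of 26G genes, 157, became 245 with 25 to 27 nt, 897 at 1 read, 347 at 5 reads, 897 at 20 reads per 1000000, 83 after thinning to the smallest library, and 161 to 597 with a library left out. Genes of both classes, 21, became 34, 499, 92, 338, 3 and 22 to 166 under the same settings. The 100 richest genes held 44.8% of reads when all antisense reads were counted. The 22G share of antisense reads was 25.5% with 22 nt alone. The 21-nt T share of genome reads was 0.149% in piRNA-rich bins. Without the 10 richest genes, chromosomes II, IV and V held 21.1%, 16.7% and 16.2% of 22G reads, against 20.5%, 19.0% and 15.3% with them. These are counts over smaller or larger sets by construction, or with fewer libraries. Counts of list members moved by more than the margin in 71 of 220 alternatives for 22G and 45 of 198 for 26G, and 22G levels of named genes in 18 of 72. The number of 26G genes is limited most by library 3, which had 7042 such reads; how far depth or its lower 26G share sets this was not tested.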
